A study of Mus musculus with 2 samples.

Results

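The matrix metalloproteinases (MMPs), the ADAMTS proteases, the ADAMTS-like proteins and the tissue inhibitors of metalloproteinases (TIMPs) were described in cells cultured from the dorsal and ventral base of the neonatal mouse heart. Members were all genes whose symbol consists of Mmp, Adamts, Adamtsl or Timp followed by a number and, in some cases, the letter a or b. This gave 51 of the 28692 genes in the files, namely 23 MMPs, 19 ADAMTS proteases, 5 ADAMTS-like genes and 4 TIMPs. The hearts came from male and female C57Bl6 mice aged 3 days. The dorsal dissection held pulmonary veins, cardiac ganglia and the sinoatrial node, and the ventral one held the outflow tract base with the pulmonary artery and proximal aorta. Cells of 15 hearts were pooled per domain, grown as attached cells for 5 days and released with trypsin, so both libraries describe cells that survived and attached in culture. The labels name no mutation, transgene or drug for either group, and domain is the only label in which the groups differ. Each domain was also its own pool and library, and effects of these cannot be told apart from domain. Each domain was 1 library of 10x Genomics 3' chemistry, so there were no replicates and no test between domains was possible.

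Levels are unique molecular identifiers (UMIs) as a share of all UMIs of the summed cells, scaled to counts per 1000000 (CPM). Because 3' chemistry tags each transcript at its end, no scaling by gene length was applied. The dorsal library held 8926 barcodes with at least 8000 UMIs and at most 20% mitochondrial UMIs (229117951 UMIs, median 22774 per barcode), and the ventral library held 10649 (253103590 UMIs, median 21462). The libraries shared 22 of these barcodes. Ratios are log2 of dorsal over ventral CPM. All intervals are exact 95% intervals and cover counting error only, and variation from 1 dissection or culture to another is not in them. A higher level in a summed library can come from more cells of one kind or from more RNA per cell, and the library totals do not tell these apart.

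MMPs are zinc-dependent endopeptidases that are made as inactive proenzymes and cut collagens, gelatin, elastin, proteoglycans and many non-matrix proteins. ADAMTS proteases are secreted zinc proteases with thrombospondin repeats. Some cut the large proteoglycans aggrecan and versican, some trim procollagens, and the ADAMTS-like proteins share the repeats but lack the protease domain. TIMPs bind and block active MMPs, and TIMP3, which stays attached to the matrix, also blocks several ADAM and ADAMTS proteases. Versican cleavage by ADAMTS proteases is known from the remodelling of the developing heart valves and outflow tract. Transcription of several secreted MMPs is induced by inflammatory cytokines through the transcription factor AP-1, a dimer of Fos and Jun proteins.

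In the mouse genome 10 MMP genes lie side by side on chromosome 9 (GRCm38, bases 7272514 to 7699585, a span of 427 kb), in the order Mmp13, Mmp12, Mmp1b, Mmp3, Mmp1a, Mmp10, Mmp8, Mmp27, Mmp20 and Mmp7. Of these, 4 reached a mean of 1 CPM over both libraries (Mmp13, Mmp12, Mmp3 and Mmp8), and each of the 4 was at least 2-fold higher in the dorsal library (background 7.90% of genes). Mmp13 and Mmp12 were under 1 CPM in ventral and reached the minimum through the dorsal library alone. Promoters were taken from RefSeq for GRCm38.p6, as 250 bases before and 50 bases after each annotated start, and 36 of the 51 members had an entry. They were searched for the AP-1 letters TGAGTCA on either strand (TGACTCA on the other). At least 1 match was found in 7 of the 36 members (19.4%), against 1607 of 27025 genes with a promoter entry (5.95%). All 7 lie in the chromosome 9 group (Mmp1a, Mmp1b, Mmp3, Mmp7, Mmp10, Mmp12 and Mmp13), and Mmp1a, Mmp1b and Mmp7 had 3 UMIs or fewer over both libraries, so the letters were also present in members that were hardly detected. The promoters of Mmp13, Mmp3 and Mmp12, the 3 with a match that reached 1 CPM, follow, 5′ to 3′ on the plus strand, with the AP-1 letters in capitals.

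Mmp13, chr9:7272264-7272563: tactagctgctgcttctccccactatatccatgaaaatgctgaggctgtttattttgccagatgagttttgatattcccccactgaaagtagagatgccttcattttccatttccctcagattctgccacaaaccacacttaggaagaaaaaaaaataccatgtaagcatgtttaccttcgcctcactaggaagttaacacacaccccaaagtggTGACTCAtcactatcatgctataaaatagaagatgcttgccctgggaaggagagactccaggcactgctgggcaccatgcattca
Mmp3, chr9:7445572-7445871: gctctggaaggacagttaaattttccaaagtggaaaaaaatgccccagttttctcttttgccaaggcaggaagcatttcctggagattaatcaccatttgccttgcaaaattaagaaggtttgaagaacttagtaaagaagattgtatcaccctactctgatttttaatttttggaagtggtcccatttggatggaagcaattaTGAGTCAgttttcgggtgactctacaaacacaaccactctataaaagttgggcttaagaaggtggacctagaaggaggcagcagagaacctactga
Mmp12, chr9:7347124-7347423: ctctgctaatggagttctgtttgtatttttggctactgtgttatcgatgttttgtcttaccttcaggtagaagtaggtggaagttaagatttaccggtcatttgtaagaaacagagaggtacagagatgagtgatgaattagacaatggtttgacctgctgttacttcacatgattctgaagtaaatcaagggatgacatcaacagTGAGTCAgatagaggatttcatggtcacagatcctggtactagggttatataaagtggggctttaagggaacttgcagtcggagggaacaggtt

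The match begins 35 bases before the start in Mmp13, 46 in Mmp3 and 44 in Mmp12. RefSeq gives Mmp12 a further start upstream, whose window holds no match. A match of 7 letters describes the sequence and does not show that a factor was bound in these cells.

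**Figure D1:**
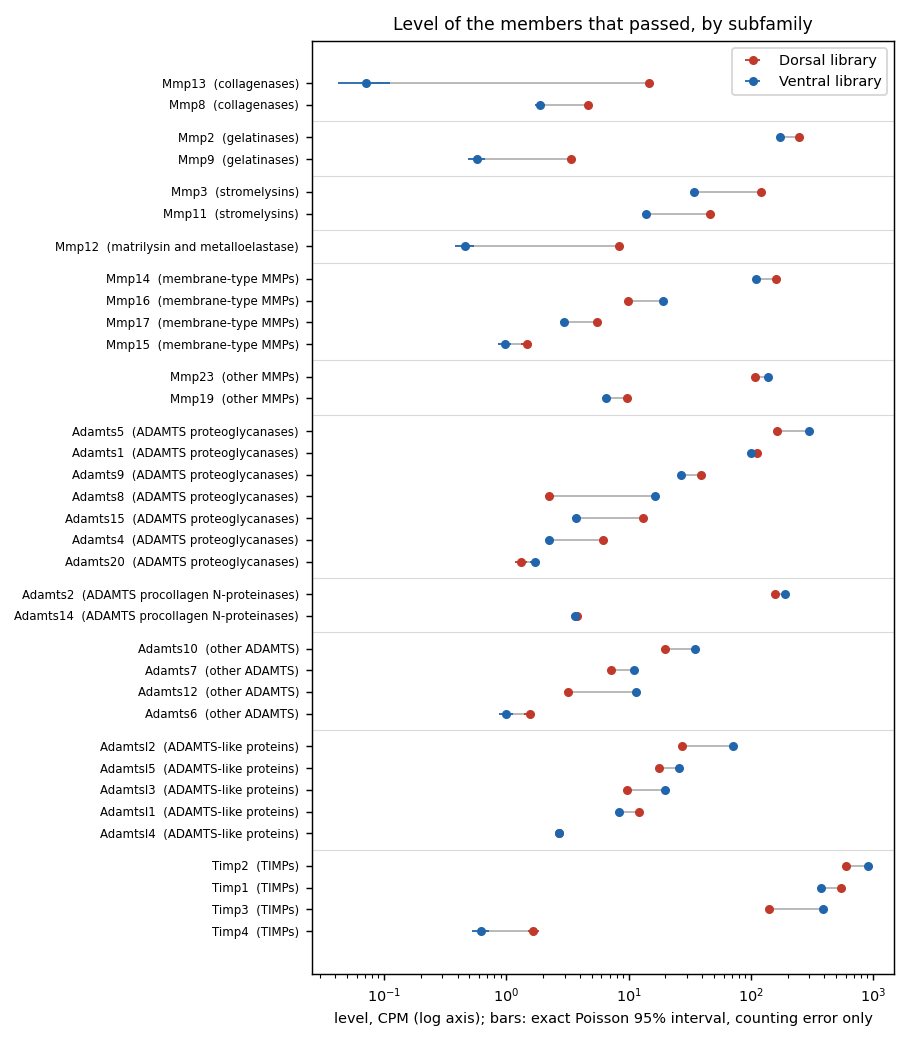
Level of each of the 35 members with a mean of at least 1 CPM, in CPM on a log axis, in the dorsal (red) and ventral (blue) library, ordered by subfamily. Bars are exact Poisson 95% intervals, which are shorter than the points for most members, and the red points lie right of the blue for the collagenases, gelatinases, stromelysins and Mmp12.

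A mean of 1 CPM over the 2 libraries was reached by 35 members, and 16 did not reach it. Among the 35, 9 were dorsal-high, that is, at least 2-fold higher in dorsal (background 7.90% of the 12490 genes passing the same minimum), 5 were ventral-high (background 5.26%) and 21 lay within 2-fold. The median log2 ratio was 0.51, beside 0.09 over all genes tested. It was, however, 0.11 at a UMI minimum of 15000 and -0.32 at a minimum of 10 CPM. At 10 CPM 2 of 18 members were dorsal-high and 3 ventral-high, beside 318 and 327 of all 7660 genes passing that minimum. Of the 9, Mmp9, Mmp12, Mmp13 and Timp4 were under 1 CPM in the ventral library and passed through the dorsal library alone, so that for them the minimum itself implied a dorsal excess. By family the counts were as follows. Of 13 MMPs that passed, 6 were dorsal-high and 0 ventral-high, of 13 ADAMTS proteases 2 were dorsal-high and 2 ventral-high, of 5 ADAMTS-like genes 0 and 2, and of 4 TIMPs 1 and 1.

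The collagenases cleave intact fibrillar collagen. Mmp13, collagenase 3, had 3382 dorsal and 18 ventral UMIs, which is 14.8 CPM (14.3 to 15.3) and 0.0711 CPM (0.0421 to 0.112). Its log2 ratio of 7.70 (7.03 to 8.45) was the highest of the 35 members. Mmp8, collagenase 2, known from neutrophil granules, was at 4.67 and 1.88 CPM, a log2 ratio of 1.31 (1.15 to 1.47). Mmp1a and Mmp1b, the mouse counterparts of interstitial collagenase, had 0 dorsal and at most 3 ventral UMIs.

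The gelatinases cut denatured collagen and basement membrane collagen. Mmp2, gelatinase A, was the most abundant MMP in both libraries, at 248 CPM dorsal and 174 CPM ventral, within 2-fold (log2 0.51). Mmp9, gelatinase B, typical of myeloid cells, was at 3.40 CPM dorsal and 0.573 CPM ventral, a log2 ratio of 2.57 (2.31 to 2.84). The 2 gelatinases thus differed both in level and in domain ratio.

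Stromelysins have a broad range of matrix substrates. Mmp3, stromelysin 1, which also activates other pro-MMPs, was at 122 CPM dorsal and 34.4 CPM ventral, a log2 ratio of 1.83 (1.79 to 1.86). Mmp11, stromelysin 3, a protease of stromal fibroblasts, was at 46.4 and 13.8 CPM, a log2 ratio of 1.75 (1.69 to 1.80). Mmp10, stromelysin 2, had 50 dorsal and 20 ventral UMIs and did not reach the minimum. Mmp12, the macrophage elastase, was at 8.40 CPM dorsal and 0.458 CPM ventral, a log2 ratio of 4.20 (3.93 to 4.48). Mmp7, matrilysin, had 1 UMI in all.

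Membrane-type MMPs are held at the cell surface, where Mmp14 activates pro-MMP2 in a complex with TIMP2. No membrane-type MMP was 2-fold apart. Mmp14 was at 162 CPM dorsal and 110 CPM ventral. Mmp16 was higher in ventral, at 9.82 and 19.0 CPM (log2 -0.95, -1.03 to -0.88), close to the 2-fold line, which it passed with another scaling (log2 -1.07) and without mural-like cells (log2 -1.02). Mmp17, which is anchored by a lipid, was at 5.57 and 2.97 CPM (log2 0.91, and 1.39 when each cell counted equally) and Mmp15 at 1.47 and 0.968 CPM (log2 0.60). Mmp24 had 6 dorsal and 7 ventral UMIs and Mmp25 had 2 dorsal and 0 ventral UMIs. Of the remaining MMPs, Mmp23 was at 107 and 138 CPM and Mmp19 at 9.79 and 6.57 CPM.

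Among the ADAMTS proteases, the proteoglycanases are the ones that cut aggrecan or versican. Adamts5 was the most abundant, at 164 CPM dorsal and 300 CPM ventral (log2 -0.87, -0.89 to -0.86), followed by Adamts1 at 113 and 101 CPM and Adamts9 at 39.5 and 26.9 CPM. Adamts8 was 16.4 CPM in ventral and 2.25 CPM in dorsal, a log2 ratio of -2.87 (-3.00 to -2.74), the lowest of the members that passed. Adamts15 went the other way, at 13.1 CPM dorsal and 3.70 CPM ventral, a log2 ratio of 1.82 (1.72 to 1.93). The genes of Adamts15 and Adamts8 are direct neighbours on chromosome 9, 20.1 kb apart on opposite strands. Adamts4, aggrecanase 1, was also dorsal-high, at 6.17 and 2.24 CPM (log2 1.46, 1.32 to 1.60). Adamts20 was at 1.31 and 1.71 CPM. Adamts1 and Adamts5, also neighbours (chromosome 16, 53.1 kb apart, same strand), were both within 2-fold.

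Adamts2, which removes the N-terminal propeptide of fibrillar procollagens, was at 159 CPM dorsal and 192 CPM ventral, and its relative Adamts14 was at 3.81 and 3.64 CPM. Adamts12, which can cleave cartilage oligomeric matrix protein, was at 3.20 CPM dorsal and 11.5 CPM ventral, a log2 ratio of -1.84 (-1.96 to -1.73). Adamts10, linked to fibrillin microfibrils, was at 20.03 and 34.7 CPM (log2 -0.79), Adamts7 at 7.17 and 11.0 CPM (log2 -0.62) and Adamts6 at 1.56 and 0.9996 CPM (log2 0.64). Adamts12 was the single one of these 6 genes, all above the minimum, with a 2-fold difference.

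The ADAMTS-like proteins bind fibrillins and other matrix proteins and have no protease activity of their own. Adamtsl2 was the most abundant, at 27.6 CPM dorsal and 71.4 CPM ventral, a log2 ratio of -1.37 (-1.41 to -1.33). Adamtsl3 was at 9.68 and 19.9 CPM, a log2 ratio of -1.04 (-1.11 to -0.97), and when each cell counted equally it was -0.83 and under 2-fold. Adamtsl5 was at 17.6 and 26.0 CPM (log2 -0.56), Adamtsl1 at 12.3 and 8.32 CPM (log2 0.56) and Adamtsl4 at 2.69 and 2.72 CPM.

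The TIMPs were the most abundant members. Timp2, which also takes part in the activation of MMP2, was at 605 CPM dorsal and 904 CPM ventral and was found in 95.8% and 99.3% of cells thinned to 8000 UMIs each. Timp1, an inhibitor induced in injury and inflammation, was at 549 CPM dorsal and 375 CPM ventral. Timp3 was at 141 CPM dorsal and 391.5 CPM ventral, a log2 ratio of -1.48 (-1.50 to -1.46), and Timp4 was low, at 1.66 and 0.62 CPM (log2 1.42, 1.15 to 1.70). Summed over families, the MMPs took 746 CPM dorsal and 503 CPM ventral, the ADAMTS proteases 536 and 707, the ADAMTS-like genes 69.8 and 128, and the TIMPs 1296 and 1672. There were 1.74 TIMP UMIs for each MMP UMI in the dorsal library and 3.32 in the ventral library. This ratio is of transcripts and says nothing of protein or of activity.

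The 16 members below the minimum were Mmp1a, Mmp1b, Mmp7, Mmp10, Mmp20, Mmp21, Mmp24, Mmp25, Mmp27, Mmp28, Adamts3, Adamts13, Adamts16, Adamts17, Adamts18 and Adamts19. Their highest level in either library was 1.42 CPM (Adamts17, dorsal). At a count of 10 UMIs or fewer over both libraries were 7 of them. Mmp20, the enamel protease, had 0 UMIs, which allows up to 0.0161 CPM dorsal and 0.0146 CPM ventral. Just inside the minimum lay Timp4 with a mean of 1.14 CPM and Mmp15 with 1.22 CPM. Just outside lay Adamts17 with 0.9996 CPM and Mmp27 with 0.990 CPM.

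Cells were grouped to see where each member was found. Clustering left the 51 members out of the variable genes, so no member helped to define a cluster, and called doublets were removed. Class and cluster levels, and shares of a gene's UMIs held by a class or cluster, therefore cover the 8289 dorsal and 10105 ventral cells left, unless all barcodes are named. Detection of genes in the same cells was counted over all barcodes, doublets included. Classes carry the ending "-like" because they rest on marker genes. Fibroblast-like cells made up 58.2% of dorsal and 49.8% of ventral cells, mural-like cells (smooth muscle and pericyte markers) 7.53% and 14.1%, and glial-like cells 4.97% and 1.61%. Macrophage-like cells were 1.88% and 1.21%, endothelial-like cells 1.18% and 1.21%, and mesothelial-like cells 0.109% and 8.39%. Some of these shares changed with the clustering. At a Leiden resolution of 2 mesothelial-like cells were 6.84% of dorsal and 7.79% of ventral cells, and at 0.5 fibroblast-like cells were 42.2% and 55.6% and mural-like cells 7.08% and 8.29%. With called doublets kept, mural-like cells were 6.68% and 7.64%. Clusters 3 (4 dorsal and 1415 ventral cells), 7 (949 and 9), 12 (586 and 0) and 15 (364 and 0) each had 6 to 8 fibroblast markers in 50% of their cells but stayed unnamed under the naming rule, and fibroblast-like values leave them out. The clusters were almost separate by domain, and fibroblast-like cells were mostly clusters 1, 2 and 5 in dorsal and clusters 0, 4 and 6 in ventral.

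**Figure D2:**
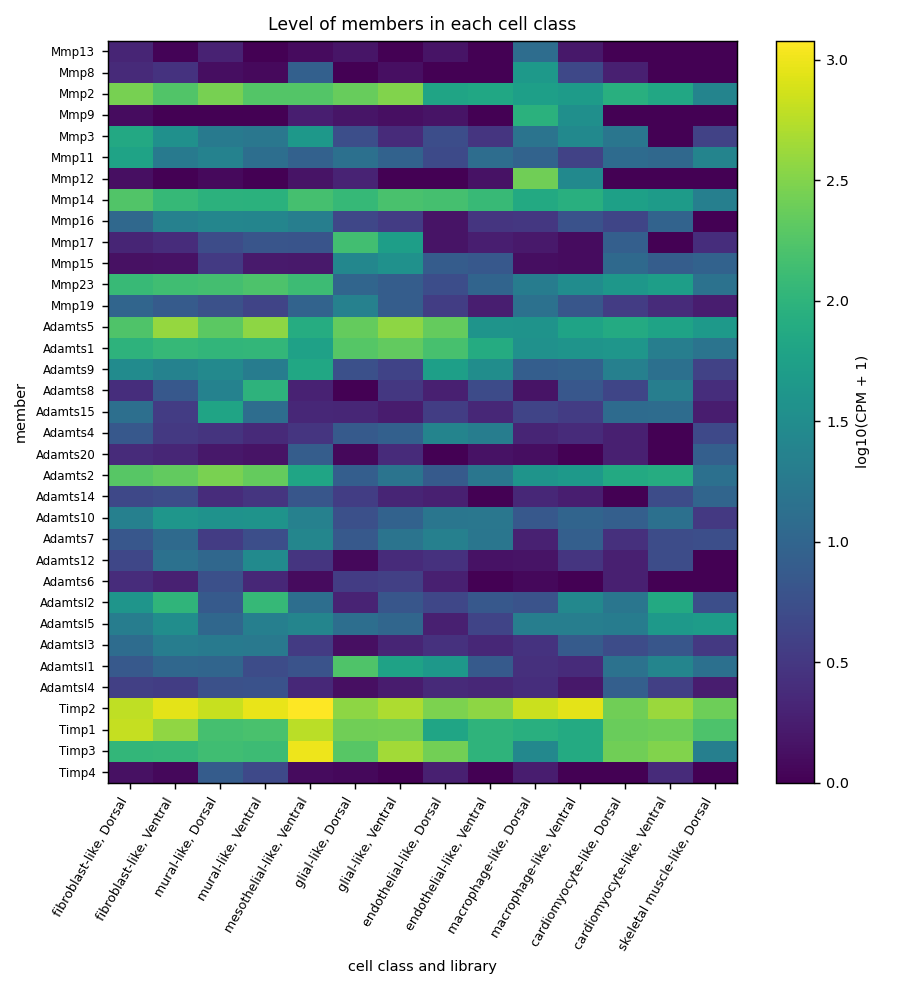
Level of the 35 members in each cell class and library with at least 20 cells, as log10 of CPM plus 1. Timp2, Mmp2 and Mmp14 were found in every class shown, whereas Mmp12 and Mmp9 were high in the 2 macrophage-like columns and Mmp17 in the 2 glial-like columns.

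A level at least 2-fold above the other cells of the same library, with 5 CPM added to both sides, was found for 35 pairs of a passing member and a class in a library. Macrophage-like cells had Mmp12, Mmp9 and Mmp8 in dorsal (background 6.57% of genes) and Mmp9 and Mmp12 in ventral (6.97%). Glial-like cells had Mmp17, Adamtsl1 and Mmp15 in dorsal (7.50%) and these 3 and Adamts1 in ventral (6.35%). Mural-like cells had Adamts8, Adamts15 and Mmp16 in dorsal (3.17%) and Adamts8, Adamts12 and Adamts15 in ventral (1.37%). Mesothelial-like cells, 848 in the ventral library, had Timp3, Adamts9, Adamts7 and Mmp8 (3.84%). Endothelial-like cells had Adamtsl1, Adamts4 and Adamts7 in dorsal (8.24%) and Adamts4 in ventral (8.08%). Fibroblast-like cells had Adamtsl2 and Mmp11 in dorsal (0.608%) and Adamtsl2 in ventral (0.424%). Cardiomyocyte-like cells, 46 and 32, had Mmp15 in dorsal (5.23%) and Adamtsl1 and Mmp15 in ventral (6.12%), and the 35 dorsal skeletal muscle-like cells had Adamtsl5, Mmp15 and Adamts20 (7.93%). Adamts8, Adamts15, Mmp9, Mmp12, Mmp15, Mmp17, Adamtsl1, Adamts4 and Adamtsl2 were high in the same class in both libraries. Of the 35 pairs, Adamtsl2 in ventral fibroblast-like cells was lost at a resolution of 2 and Mmp8 in mesothelial-like cells at 0.5. With doublets kept, the pairs lost were Mmp8 in mesothelial-like cells, Adamts12 in ventral mural-like cells, Adamts7 in dorsal endothelial-like cells, Mmp11 in dorsal fibroblast-like cells, and Adamts20 and Mmp15 in skeletal muscle-like cells.

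Mmp13 and Mmp3 shared 1 dorsal cluster. Cluster 12, with 586 dorsal and 0 ventral cells, was led by Col10a1, Dio2, Igf2, Spp1 and Col9a1, held too few chondrocyte markers for a class name and stayed unnamed. Its Mmp13 level was 341 CPM (329 to 353) against 1.49 CPM in the other dorsal cells, and it held 91.1% of the dorsal Mmp13 UMIs. Its Mmp3 level was 1566 CPM against 59.7 CPM, with 54.0% of the dorsal Mmp3 UMIs. Within the cluster the genes were uneven. After thinning to 8000 UMIs, 15.2% of its cells had a Mmp13 UMI and 41.6% a Mmp3 UMI, and 1 dorsal cell held 410 Mmp13 UMIs. Over all dorsal barcodes of the rule, doublets included, the 90 cells with the most Mmp13 held 93.1% of its UMIs and the 90 with the most Mmp3 held 52.1%. Of 150 thinned dorsal cells with Mmp13, 53.3% had Mmp3, against 15.0% of all dorsal cells. Cluster 12 also held 59.0% of dorsal Timp4 UMIs, at 23.3 CPM, and the highest dorsal Mmp2 level of a cluster with 50 cells or more, 448 CPM. Without cluster 12, which was left out after its values had been seen, the log2 ratio of the libraries was 4.67 for Mmp13, 0.91 for Mmp3 and 0.37 for Timp4, the last 2 being under 2-fold.

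Outside cluster 12, Mmp3 was found more widely. Fibroblast-like clusters 5 and 2 were at 133 and 92.6 CPM in dorsal, and cluster 0 and the unnamed Fmod and Scx cluster 3 at 48.2 and 50.01 CPM in ventral. Mmp13 was at 11.6 CPM in dorsal macrophage-like cells. In barcodes with 1 to 100 UMIs, which hold free RNA, the dorsal Mmp13 level was also 11.6 CPM. The fibroblast markers in the dorsal macrophage-like cells summed to 20.4% of their free RNA level. The part of free RNA in the Mmp13 value of these cells was not tested.

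**Figure D3:**
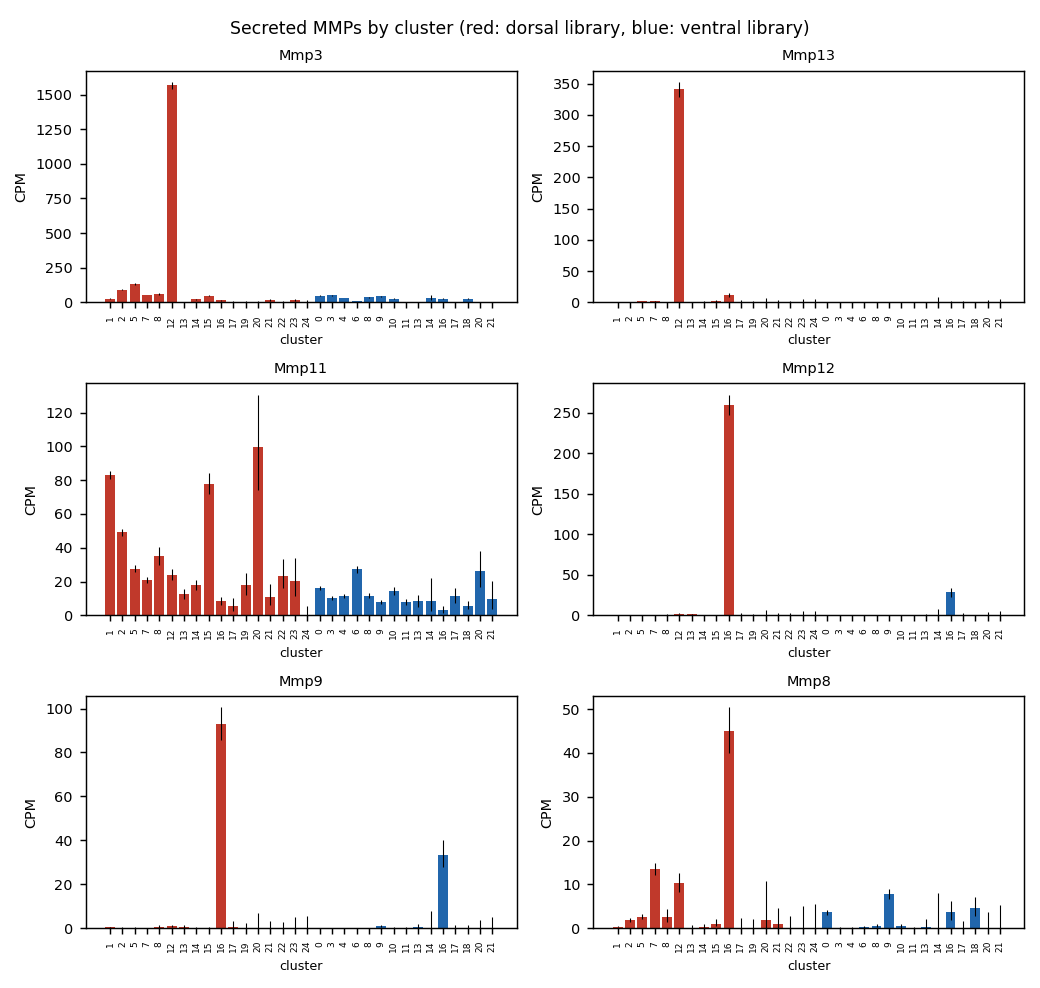
CPM of 6 secreted MMPs in each cluster with at least 20 cells in a library, dorsal in red and ventral in blue, with exact Poisson 95% intervals and axes starting at 0. Cluster 12 stands out for Mmp3 and Mmp13 and cluster 16, the macrophage-like cells, for Mmp12, Mmp9 and Mmp8, while Mmp11 is spread over many clusters.

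Mmp12 and Mmp9 lay in macrophage-like cells. The 156 dorsal cells of cluster 16 had Mmp12 at 260 CPM (248 to 272) and the 122 ventral cells at 28.2 CPM (23.0 to 34.3), and they held 95.5% and 87.8% of the Mmp12 UMIs left after doublet removal. Mmp9 was at 92.9 CPM (85.7 to 101) and 33.5 CPM (27.8 to 40.1) in the same cells, with 92.9% and 83.3% of its UMIs. The macrophage markers of this cluster summed to 21918 CPM (dorsal) and 26383 CPM (ventral), and none of the 8 was at 0. Neutrophil markers were low there, at 79.4 CPM dorsal and 24.02 CPM ventral over 5 genes, of which S100a8 took 73.1 and 19.3 CPM while Retnlg and Cxcr2 were at 0. Their part in the Mmp9 and Mmp8 levels was not tested. The dorsal cells of the cluster were also deeper, with a median of 39366 UMIs against 26549. A single dorsal cell held 427 of the 1925 Mmp12 UMIs of all dorsal barcodes. Without macrophage-like cells, also left out after their values had been seen, the log2 ratio of the libraries was 3.93 for Mmp12, 2.88 for Mmp9 and 0.90 for Mmp8, so Mmp8 was then under 2-fold.

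Mmp8 was more widely spread than Mmp12 or Mmp9. In macrophage-like cells it was at 45.0 CPM (dorsal) and 3.63 CPM (ventral), and these held 32.0% and 2.88% of its UMIs. A further 37.5% of dorsal Mmp8 UMIs lay in cluster 7 (Saa3, Hpgd, Calca, unnamed) at 13.5 CPM, and 38.9% of ventral UMIs lay in the mesothelial-like cluster 9 at 7.69 CPM. Mmp27, below the minimum in the summed libraries, was at 10.4 and 9.77 CPM in dorsal and ventral macrophage-like cells, which held 24.6% of its UMIs in each library.

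Mmp11 was a gene of fibroblast-like and related cells. Its highest dorsal levels among clusters with 50 cells or more were 82.9 CPM in cluster 1 (Tnfsf8, Cxcl13, Il33), which held 48.9% of dorsal UMIs of the gene, and 77.7 CPM in cluster 15 (Grem1). In ventral the highest was 27.1 CPM in cluster 6 (Col12a1). Mmp11 overlaps Chchd10 on the opposite strand, and whether the authors' counting used strand is not given in the sources used here. Chchd10, a mitochondrial protein gene, was at 523 CPM dorsal and 74.8 CPM ventral and at 1012 CPM in cluster 1, and the 2 genes' reads cannot be told apart with certainty. The 2 genes did not keep 1 ratio. Cardiomyocyte-like cluster 21 reached 1568 CPM (dorsal) and 1395 CPM (ventral) of Chchd10 but only 11.0 and 9.89 CPM of Mmp11, and cluster 7 (dorsal) had 421 and 20.97 CPM of the 2 genes. In the mural-like cluster 20 the 43 dorsal cells had Mmp11 at 99.7 CPM and Chchd10 at 92.0 CPM.

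Adamts8 and Adamts15 had their highest dorsal and ventral class levels in mural-like cells, although the 11.6 CPM of Adamts15 in ventral did not differ beyond counting error from the 11.3 CPM of the 32 cardiomyocyte-like cells (8 UMIs). More of the dorsal Adamts15 UMIs, however, lay in the far more numerous fibroblast-like cells, 1581 against 624 in mural-like cells, and in ventral the numbers were 290 and 287. Of Adamts8, mural-like cells held 225 dorsal and 2377 ventral UMIs, and fibroblast-like cells 196 and 702. Ventral cluster 11 (Sost, Igfbp2, Acan, Myh11; 638 cells) had Adamts8 at 194 CPM (186 to 202), 57.1% of the ventral UMIs of the gene, and Adamts15 at 20.2 CPM. Dorsal cluster 14 (Rgs5, Myh11; 460 cells) had Adamts15 at 61.6 CPM (56.2 to 67.4) and Adamts8 at 20.4 CPM, and dorsal cluster 19 (Des, Actg2; 109 cells) had Adamts15 at 75.1 CPM and Adamts8 at 34.3 CPM. Both genes were therefore found together in these 3 clusters, with Adamts8 the higher in ventral and Adamts15 the higher in dorsal cells. Adamts15 was also at 22.8 CPM in the dorsal fibroblast-like cluster 5. Timp4 was at 8.76 CPM in cluster 14 and at 7.85 CPM in cluster 11, which held 58.0% of the ventral UMIs of Timp4, and without mural-like cells its log2 ratio between the libraries was 2.35.

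Another ventral mural-like cluster, cluster 10 (Ppp1r14a, Ehd3, Higd1b; 699 cells), had a different set from cluster 11. Adamts5 was at 592 CPM (579 to 606), its highest level in a ventral cluster, Adamtsl2 at 229 CPM (220 to 237) and Adamts12 at 30.9 CPM (27.9 to 34.2). Cluster 11 had Adamtsl2 at 5.15 CPM, far below cluster 10. Most ventral Adamtsl2, 67.9%, came from the fibroblast-like cluster 0 (Gpx3, Hsd11b1) at 193 CPM, and 79.1% of the dorsal UMIs came from cluster 2 (Sele, Fbln1, Cxcl2) at 102 CPM. Adamtsl3 was highest at 42.6 CPM in the ventral Fmod and Scx cluster 3 and at 27.4 CPM in the dorsal Gdf10 cluster 5.

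Glial-like cells had Mmp17, Adamtsl1 and Mmp15, of which Mmp17 alone was 2-fold above the other cells in no other class. Mmp15 was also 2-fold above the other cells in cardiomyocyte-like and skeletal muscle-like cells. Adamtsl1 was so in ventral cardiomyocyte-like and dorsal endothelial-like cells, with 138 CPM in the dorsal endothelial-like cluster 24. Mmp17 was at 139 CPM (130 to 149) in the 412 dorsal and 51.6 CPM (43.5 to 60.7) in the 163 ventral cells, against 1.42 and 2.35 CPM in the other cells. After thinning it was found in 59.0% and 33.1% of glial-like cells. Adamtsl1 was at 167 and 58.7 CPM and Mmp15 at 25.4 and 34.9 CPM. Mmp23 and Adamts2, abundant in the fibroblast-like cells at 118 and 188 CPM in dorsal, were low in dorsal glial-like cells at 9.18 and 7.35 CPM. Fibroblast markers in glial-like cells summed to 20.7% and 25.2% of their level in free RNA, and glial markers summed to 1807 and 1639 CPM with none of the 8 at 0.

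Timp3 marked particular ventral clusters. It was at 1183 CPM in the Fmod and Scx cluster 3 and 998 CPM in the mesothelial-like cluster 9, which held 43.8% and 25.7% of ventral Timp3 UMIs. Ventral cluster 18, unnamed, was at 901 CPM, and among its 10 leading genes were cycling genes and the mesothelial marker Upk1b, with 7 mesothelial markers 2-fold above the other cells. In fibroblast-like cells Timp3 was at 108 CPM dorsal and 112 CPM ventral, a class that leaves out cluster 3, which had 8 fibroblast markers each found in at least 50% of its cells. The dorsal cluster 7 was the highest dorsal cluster of 50 cells or more, at 286 CPM. Cluster 7 and ventral cluster 9 also shared Adamts9 (120 and 67.8 CPM) and Adamts7 (20.2 and 24.6 CPM), a pair of genes that was 2-fold above the other cells in each of these clusters.

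**Figure D4:**
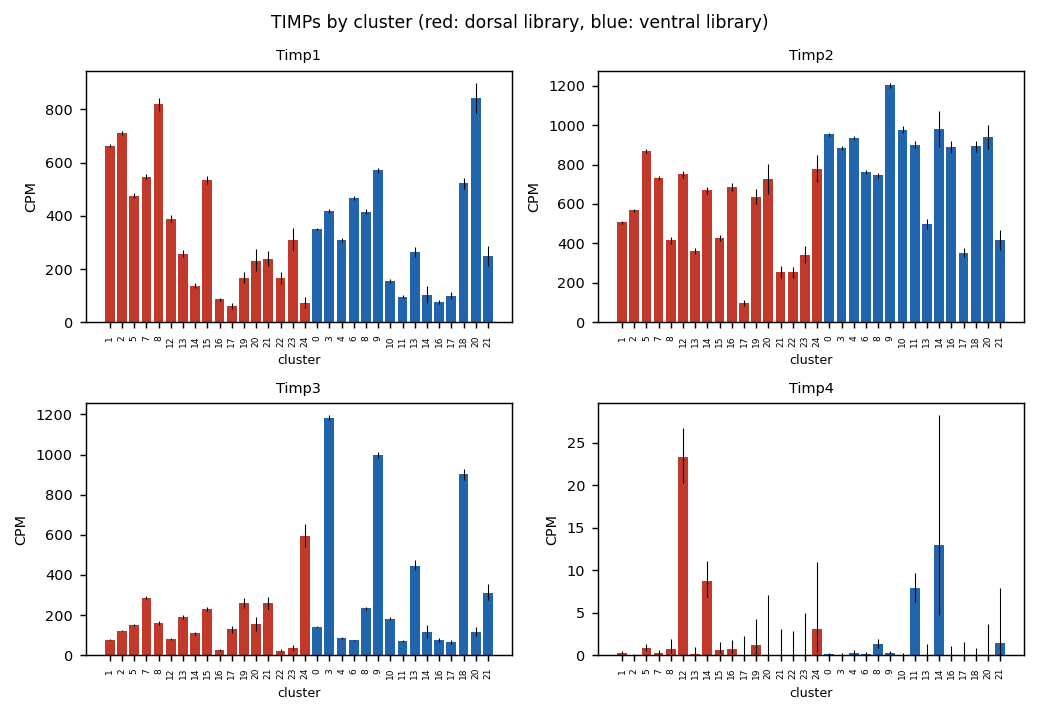
CPM of the 4 TIMP genes in each cluster with at least 20 cells in a library, dorsal in red and ventral in blue, with exact Poisson 95% intervals and axes starting at 0. Timp2 is found in every cluster shown, Timp1 varies over about the same range in both libraries, Timp3 is highest in ventral clusters 3, 9 and 18, and Timp4 is highest in dorsal cluster 12.

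Timp1 and Timp2 divided the classes in another way. Timp1 was at 640 CPM (dorsal) and 371 CPM (ventral) in fibroblast-like cells and at 571 CPM in mesothelial-like cells, but at 146 and 156 CPM in mural-like and 85.9 and 76.2 CPM in macrophage-like cells. Timp2 was at 604 and 899 CPM in fibroblast-like, 667 and 941 CPM in mural-like and 687 and 889 CPM in macrophage-like cells, and took 85.9% and 85.4% of all TIMP UMIs in the last. The number of TIMP UMIs for each MMP UMI was 1.86 in dorsal and 2.70 in ventral fibroblast-like cells, 1.60 and 2.48 in mural-like cells, and 1.32 and 3.66 in macrophage-like cells. In endothelial-like cells it was 2.63 and 2.54, and in mesothelial-like cells of the ventral library it was 5.02. The dorsal value was lower in the fibroblast-like, mural-like, macrophage-like, glial-like (1.43 and 2.08) and cardiomyocyte-like (3.17 and 4.97) classes, but not in endothelial-like cells.

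The activation partners Mmp2, Mmp14 and Timp2 were mostly found together. Of thinned dorsal cells with Mmp2, 96.8% had Timp2 and 69.4% had Mmp14, against 95.8% and 66.8% of all dorsal cells. In ventral cells the shares were 99.5% and 54.3%, against 99.3% and 53.0%. Each share was within 3 percentage points of that in all cells, so detection of Mmp2 went with little more Mmp14 or Timp2. Mmp14 was highest in the ventral mural-like cluster 20 (63 cells) at 424 CPM (385 to 467), which also had the highest ventral Timp1, 841 CPM.

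Domain ratios within a class compare cells that share class markers, which need not be the same kind of cell. Fibroblast-like cells compare mostly clusters 1, 2 and 5 in dorsal with clusters 0, 4 and 6 in ventral. Clusters 3, 7, 12 and 15 are left out. Of the 30 members measured in fibroblast-like cells, 4 were dorsal-high (background 6.93%), and 5 ventral-high (background 4.85%). Dorsal-high were Adamts15 (12.4 and 2.49 CPM, log2 2.32), Mmp11 (59.5 and 17.8 CPM, log2 1.74), Adamts4 (6.14 and 2.24 CPM, log2 1.45) and Mmp3 (72.2 and 34.6 CPM, log2 1.06). Ventral-high were Adamts8 (log2 -1.97), Adamts12 (log2 -1.90), Adamtsl2 (log2 -1.40), Adamts5 (170 and 391 CPM, log2 -1.20) and Mmp16 (9.90 and 21.6 CPM, log2 -1.13). These 9 include Adamts5 and Mmp16, which were within 2-fold in the summed libraries. Adamts8, at 1.54 and 6.03 CPM, lay below its free RNA levels of 6.49 and 19.9 CPM. Mmp3 also lay below its free RNA levels, 93.1 and 40.6 CPM. The part of free RNA in the values of either gene was not tested.

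Mural-like cells compare clusters 14 and 19 in dorsal mostly with clusters 10 and 11 in ventral. Of 31 measured members 4 were dorsal-high (background 9.29%) and 4 ventral-high (background 5.07%). Dorsal-high were Adamts15 (61.6 and 11.6 CPM, log2 2.40), Adamts6 (log2 1.93), Mmp15 (log2 1.87) and Adamtsl1 (log2 1.12). Ventral-high were Adamtsl2 (6.52 and 116 CPM, log2 -4.15), Adamts8 (22.2 and 96.4 CPM, log2 -2.12), Adamts12 (log2 -1.58) and Adamtsl5 (log2 -1.04). Adamts15, Adamts8, Adamts12 and Adamtsl2 thus had the same direction in fibroblast-like and mural-like cells. Adamts8 in fibroblast-like cells, however, lay below its free RNA level in both libraries, as did Mmp15, Adamtsl1 and Adamtsl5 in mural-like cells.

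In glial-like cells 5 of 25 measured members were dorsal-high (background 7.52%) and 3 ventral-high (background 3.58%). The dorsal-high were Mmp3 (log2 1.66, 0.14 to 3.64), Mmp19 (log2 1.60), Adamtsl1 (log2 1.51), Mmp17 (log2 1.43) and Adamts17 (log2 1.27, 0.15 to 2.57). The ventral-high were Adamtsl2 (log2 -2.51), Timp3 (189 and 447 CPM, log2 -1.24) and Adamts7 (log2 -1.17). Adamtsl2 and Mmp3 in these cells were below 10 CPM and under their free RNA levels, so expression and free RNA cannot be told apart for them.

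In macrophage-like cells 6 of 26 were dorsal-high (background 5.09%) and 6 ventral-high (background 5.06%). Mmp8 (log2 3.63, 2.84 to 4.56), Mmp12 (log2 3.20, 2.91 to 3.51) and Mmp9 (log2 1.47, 1.19 to 1.76) were dorsal-high genes above their free RNA level. Mmp13 (log2 4.38) had a dorsal level equal to free RNA, and Mmp11 (8.46 and 3.07 CPM, log2 1.46) lay below its free RNA level of 38.7 and 14.5 CPM. Mmp19 was at 13.0 and 5.59 CPM (log2 1.22). The 6 ventral-high members were Adamts8, Adamts7, Adamtsl2, Adamtsl3, Timp3 and Mmp16, each below its free RNA level in both libraries. Timp3, for example, was at 26.4 and 76.2 CPM in these cells and at 139 and 366 CPM in free RNA.

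Endothelial-like cells were few, 98 dorsal and 122 ventral. Of 17 measured members 3 were dorsal-high (background 9.70%) and 3 ventral-high (background 4.95%). Dorsal-high were Adamtsl1 (43.1 and 6.45 CPM, log2 2.74), Adamts5 (225 and 38.7 CPM, log2 2.54) and Timp3 (262 and 98.4 CPM, log2 1.41). Of the dorsal cells, 26 formed cluster 24 (Ccl21a, Lyve1, Mmrn1), which had 4 ventral cells. Cluster 24 had Adamts5 at 505 CPM, Timp3 at 594 CPM and Adamtsl1 at 138 CPM. In cluster 17 alone, with 72 dorsal and 118 ventral cells, Adamts5 had a log2 ratio of 1.86 (1.46 to 2.27) and Timp3 of 0.95 (0.65 to 1.26). Timp2 was ventral-high there at 97.6 and 352 CPM (log2 -1.85), below its free RNA levels of 623 and 880 CPM. Adamts5 and Timp3 in cluster 17 also lay below their free RNA levels in both libraries. Adamtsl1 had 8 dorsal and 1 ventral UMIs there, under the minimum of 20 UMIs, so its ratio in the class rests on few UMIs outside cluster 24. This comparison was added after the values had been seen. The 3 ventral-high members, Mmp11, Adamts2 and Mmp23, were at most 15.3 CPM and lay below their free RNA level.

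Genes that activate, inhibit, bind or induce the members were taken from 8 lists with 72 genes, of which 61 reached 1 CPM. At least 2-fold higher in dorsal were 12 of them (background 7.90%) and in ventral 4 (background 5.26%), with a median log2 ratio of 0.50 beside 0.09 over all genes. Among 15 measured inducing cytokines and transcription factors, 5 were dorsal-high and 0 ventral-high. Il6, an inflammatory cytokine, was at 73.6 and 13.0 CPM (log2 2.51), and Fosl1 and Jun, subunits of AP-1, were at 9.51 and 1.82 CPM (log2 2.39) and at 258 and 71.0 CPM (log2 1.86). Nfkb1 was at 129 and 44.2 CPM (log2 1.54). The fifth, Tnf, was at 2.05 and 0.735 CPM (log2 1.48) and is named after its values were seen.

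Of 6 other inhibitors that passed, the broad protease inhibitor A2m (2.58 and 0.324 CPM, log2 2.99) and the proteoglycan Spock2 (8.90 and 2.16 CPM, log2 2.04) were dorsal-high. Of 7 activators, 0 were dorsal-high, and Pcsk6, a proprotein convertase, was ventral-high at 3.37 and 16.2 CPM (log2 -2.27). Among 5 surface partners, Cd44, which binds hyaluronan and can dock MMP9 at the cell surface, was dorsal-high at 88.2 and 36.2 CPM (log2 1.29), and Itgb3 was ventral-high at 2.98 and 7.001 CPM (log2 -1.23). Of 9 ADAM proteases 1, Adam8 (log2 2.08), and of 11 other matrix proteases 2, Htra3 (log2 1.499) and the lysosomal protease Ctss (log2 1.40), were dorsal-high, and the procollagen C-proteinase relative Tll1 was ventral-high (log2 -1.86). Of the ADAMTS-like relatives outside the symbol rule, Thsd4 passed and lay within 2-fold. Among 7 measured substrates, the 2 large proteoglycans cut by ADAMTS proteases went opposite ways. Versican (Vcan) was at 77.0 CPM dorsal and 20.1 CPM ventral (log2 1.94), and aggrecan (Acan) was at 1.28 and 30.3 CPM (log2 -4.56).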

How the data were processed

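RNA of single cells was sequenced from both domains, as 1 library each. Cell Ranger 3.0.2 and the mm10 genome were used, per the submitters' processing notes. Whether counting used strand, and which annotation release, is not given in the sources used here. Values in the deposited matrices are unnormalised UMI counts, with 28692 genes and 6794880 barcodes in each and no selection of cells. From these counts, barcodes with at least 8000 UMIs and at most 20% mitochondrial UMIs were kept. Python 3.11.15 was used with scanpy 1.11.5, SciPy 1.17.1, NumPy 2.4.6 and pandas 2.3.3, and TMM factors came from edgeR 4.0.16 in R 4.3.3.

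Library levels used all these barcodes. For cell classes, doublets were called with Scrublet per library at an expected fraction of 0.008 per 1000 cells. The automatic threshold marked 0% of dorsal barcodes, so the highest-scoring barcodes up to the expected fraction were taken out there (637), and the automatic call was used in ventral (544), leaving 8289 and 10105 cells. Cells were normalised to 10000 UMIs, log-transformed and clustered together without integration (2000 variable genes without the members and mitochondrial genes, 30 principal components, 15 neighbours, Leiden resolution 1). A class was a candidate when 3 or more of its markers, and at least 1 in 3 of its list, were detected in 25% of a cluster's cells and 2-fold above the others. The candidate with the largest share of its list gave the name if it had 1 or more markers among the 10 leading genes and no other class had more there, and otherwise the cluster stayed unnamed. A cluster with no candidate was called fibroblast-like if it had 50 cells or more, at least 5 fibroblast markers in 50% of cells, and no other class had more markers among its 10 leading genes than fibroblasts did. Cluster 7 was left unnamed because its candidate had no marker among the 10 leading genes, and clusters 3, 12 and 15 by the last condition. This naming rule was written with the clusters in view, so class values may depend on it.

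CPM intervals were exact Poisson, ratio intervals exact conditional binomial and class shares exact binomial, at 95%. In ratios a count of 0 was set to 3 counts. With 1 library per domain no p-value was computed, and a ratio of at least 2-fold at a mean of at least 1 CPM was used as a description of size. Class ratios needed 50 cells in each library and 20 UMIs. Shares of cells with a UMI were taken after thinning each cell to 8000 UMIs, and since all cells reached this number none was left out. Free RNA was the sum of barcodes with 1 to 100 UMIs. Positions came from GENCODE M21 on GRCm38, where 28339 of the 28692 gene IDs and all 51 members matched. Every member above the minimum was named, related genes only when 2-fold apart and at most 4 per list, and in clusters the 3 members with the highest ratio to the other cells, with further members chosen after their values were seen. The members and lists were chosen with earlier results of these data known. Interval coverage was tested on simulated Poisson counts, the model that the intervals assume. Uneven counts between cells were not part of that simulation. The alternatives were other UMI, mitochondrial and CPM minimums, doublets removed or kept, TMM scaling, equal weight per cell, equal class shares, and Leiden resolutions of 0.5 and 2.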

Additional observations from a re-analysis of the deposited data

Results flagged for a closer look

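For 3 members the domain ratio was at least 2-fold in opposite directions in different cell classes. The share of all genes that do so was not computed, so this count has no background. The difference between classes was not tested in any of these cases, since each domain was 1 library. Adamts5 had a log2 ratio of dorsal over ventral of 2.5366 in endothelial-like cells and of -1.2045 in fibroblast-like cells. Timp3 had 1.4132 in endothelial-like cells, -1.2418 in glial-like cells and -1.5287 in macrophage-like cells. Mmp11 had 1.7373 in fibroblast-like cells, 1.4608 in macrophage-like cells and -1.5778 in endothelial-like cells. The macrophage-like values of Timp3 and Mmp11 and the endothelial-like value of Mmp11 rest on levels below those in free RNA of the same library. In the endothelial-like cluster 17 alone, Adamts5 had a log2 ratio of 1.86, Timp3 of 0.95 and Mmp11 of -1.02, so Timp3 was then under 2-fold. In that cluster each of the 3 members lay below its free RNA level in both libraries.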

How the results depend on the processing

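No paired analysis was possible because each domain was 1 library, and for the same reason no replicate could be left out. The median log2 ratio of the members, 0.51, was 0.11 at a UMI minimum of 15000, 0.40 with TMM scaling, 0.18 with classes at their mean share, 0.29 without cluster 12 and 0.35 without macrophage-like cells, and it turned to -0.32 at a minimum of 10 CPM, where 18 members remained. With no minimum 17 members were counted as dorsal-high, beside 3892 of 21318 genes. These 17 include Mmp1b and Mmp7, with 0 dorsal and 1 ventral UMI each, only because a count of 0 was set to 3 in ratios. At 10 CPM 2 members were dorsal-high and 3 ventral-high, beside 318 and 327 of 7660 genes. For related genes the median was 0.39 with TMM scaling and 0.62 with equal weight per cell. At 10 CPM 7 related genes were dorsal-high and 1 ventral-high, beside the same 318 and 327 of 7660 genes. In mural-like cells 7 members were dorsal-high at a Leiden resolution of 0.5, where the share of all genes was not computed. TMM scaling moved the median of all genes from 0.09 to -0.03 and the counts of all genes from 987 dorsal-high and 657 ventral-high to 851 and 787. A 2-fold difference was lost by Adamtsl3 with equal weight per cell, Timp4 and Mmp3 without cluster 12 and Mmp8 without macrophage-like cells, and gained by Mmp16 with TMM scaling and without mural-like cells, Mmp17 with equal weight per cell and without mural-like cells, and Adamtsl1 with equal weight per cell. Of 35 pairs of a member and a class, 34 remained at resolution 0.5, 34 at 2 and 29 with doublets kept. Leaving out cluster 12, macrophage-like or mural-like cells was decided after seeing the data. Apart from the effect of the higher minimum, fewer members tested, the cause of these changes was not tested. At these depths a count of 0 allows up to 0.0161 CPM dorsal and 0.0146 CPM ventral.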
